A study of Mus musculus with 60 samples.

Results

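Cxcl1, Cxcl2 and Cxcl5 encode secreted CXC chemokines that draw neutrophils into tissue. The rows with these symbols were taken from a table of 10122 genes, which gave 3 genes, each with 1 row and a value in all 60 libraries. The cells were immortalised ear fibroblasts from adult DKI mice, all of 1 line labelled "Immortalized Ear Fibroblast GR NLS-iRFP-NLS", in which RelA and c-Rel carry fluorescent tags at their own loci. All 20 groups therefore share these tagged alleles and the long passage that immortalised the cells, and primary or untagged fibroblasts were not analysed here. Cells grown overnight at 37 °C were moved to 24, 34, 37 or 40 °C, and 2 h later they either received 10 ng/mL of TNF-α or IL-1β and were lysed 1 or 3 h later, or were lysed unstimulated (0 h). Each combination has 3 biological replicates, so 48 libraries came from stimulated and 12 from unstimulated cells. Stimulated cells had spent 3 or 5 h at their temperature and unstimulated cells 2 h, and no unstimulated group matched the later times.

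These chemokines signal through the receptor CXCR2 on neutrophils. Tumour necrosis factor (TNF-α) and interleukin-1β (IL-1β) bind different receptors, and both pathways converge on the kinases that free NF-κB to enter the nucleus, where it binds κB sites in promoters of inflammatory genes. Many of the mRNAs made in this way are short-lived, because their 3′ untranslated regions hold AU-rich elements, with the pentamer ATTTA at their core, that recruit decay factors. Tissue fibroblasts are a known source of CXCR2 ligands, and skin and ear tissue are normally cooler than the body core.

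Values are the authors' FPKM (fragments per kilobase of transcript, scaled to the mapped fragments of the library), so levels of different genes can be compared per length. The table holds no read counts. A depth estimated from the steps between low values was 3470000 to 7540000 fragments per library. It averaged 4490000 ± 490000 fragments at 24 °C, 6560000 ± 580000 at 34 °C, 6230000 ± 540000 at 37 °C and 6250000 ± 740000 at 40 °C (SD, n = 15 each), lowest at 24 °C. At the median depth, 1 FPKM stands for about 4.48 fragments of Cxcl1, 5.42 of Cxcl2 and 8.23 of Cxcl5. The 24 °C libraries carry the numbers 46 to 60 in the labels and all others the numbers 1 to 45, so library number, depth and 24 °C cannot be told apart. All 7 fibroblast markers on the list were measured at every temperature, with summed values of 6185 to 8769 FPKM. The keratinocyte, macrophage and endothelial markers that were measured (Krt10, Cd68, Lyz2 and Vwf) averaged 0.426 to 2.64 FPKM, and no neutrophil or mast cell marker on the lists was a row of the table. In whole-culture RNA, fewer responding cells and less mRNA per cell cannot be told apart.

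The 3 genes lie in one cluster on mouse chromosome 5, in the order Cxcl5, Ppbp, Pf4, Cxcl3, Cxcl15, Cxcl1, Cxcl2. RefSeq promoters (build GRCm38.p6) were matched for 2 of the 3, Cxcl1 and Cxcl2. They are shown with that of their neighbour Cxcl3 because all 3 hold the same κB match close to the start. Coordinates are of that build, which is not the GRCm39 named in the submitters' processing notes, and all 3 windows are on the plus strand. Capitals mark the κB match and the letters ATAAAAG of a TATA-like box.
Cxcl1, chr5:90891095-90891224: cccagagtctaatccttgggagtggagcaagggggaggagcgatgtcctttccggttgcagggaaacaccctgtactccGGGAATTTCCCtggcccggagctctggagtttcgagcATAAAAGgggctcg
Cxcl2, chr5:90903749-90903870: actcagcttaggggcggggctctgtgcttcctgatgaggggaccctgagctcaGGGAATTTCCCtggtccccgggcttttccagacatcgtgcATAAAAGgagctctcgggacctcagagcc
Cxcl3, chr5:90785951-90786080: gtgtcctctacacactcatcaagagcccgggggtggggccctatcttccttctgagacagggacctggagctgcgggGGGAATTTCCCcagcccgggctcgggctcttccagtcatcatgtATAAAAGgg

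The κB match begins 71 bases before the RefSeq start of Cxcl1, 97 before that of Cxcl2 and 73 before that of Cxcl3. In each promoter the NF-κB consensus was found on both strands, in matches that overlap by all but 1 base, which is why 11 letters are in capitals. On either strand, a match to the consensus was held by 4.51% of 32851 promoters of this length, ATAAAAG by 5.42%, and the exact letters GGGAATTTCC by 0.0883%. Those exact letters were read from the Cxcl1 promoter itself, so their rarity is a description and no independent test. The AP-1 motif TGANTCA (7.81% of promoters) and the C/EBP motif TTNNGCAA (10.8%) were searched on both strands and had no match in the full promoters of these 3 genes, 300 bases each. Such matches are letters in the reference and not measured binding.

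The 3′ untranslated regions differed in their ATTTA content. In the GENCODE M21 transcripts, Cxcl2 held 11 pentamers in 734 bases, Cxcl1 held 7 in 592 bases and Cxcl5 held 5 in 1111 bases. This is 15 per kilobase in Cxcl2, 11.8 in Cxcl1 and 4.5 in Cxcl5, against a median of 1.46 over 7882 genes. As many pentamers were held by 0% of genes with a 3′ region of similar length for Cxcl2, by 0.589% for Cxcl1 and by 9.73% for Cxcl5. The 30 bases densest in ATTTA are shown for each gene, with the pentamers in capitals.
Cxcl1: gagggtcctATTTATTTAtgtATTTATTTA
Cxcl2: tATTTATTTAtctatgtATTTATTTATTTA
Cxcl5: agcttcctgctcatctcacaagtgtATTTA

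Clusters of overlapping pentamers are thus seen in Cxcl2 and Cxcl1 and not in the densest stretch of Cxcl5. The transcripts of the 3 genes shared no stretch of 50 bases with each other. Cxcl2 shared 5.75% of such stretches with Cxcl3, so fragments from there could have been assigned to either gene.

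Over the 20 groups, each gene had its own order of levels. The highest mean of Cxcl1 was 618.6 ± 46.5 FPKM, in cells at 34 °C with IL-1β for 1 h, and its lowest was 5.85 ± 2.00 FPKM, in unstimulated cells at 40 °C (SD, n = 3 each). Cxcl2 was highest at 24 °C with TNF-α for 3 h, at 42.4 ± 2.33 FPKM, and was listed at 0 in all 3 unstimulated libraries at 40 °C. Cxcl5 was highest at 37 °C with IL-1β for 3 h, at 358.3 ± 61.3 FPKM, and lowest in unstimulated cells at 40 °C, at 1.77 ± 0.30 FPKM. The 3 genes thus reached their highest means at 3 different temperatures. Neighbours in this order often could not be separated: the ranges of replicates overlapped in 12 of 19 neighbouring pairs for Cxcl1, 16 of 19 for Cxcl2 and 13 of 19 for Cxcl5. The highest group of Cxcl1 did not overlap the next, which was 37 °C with IL-1β for 1 h at 541.8 ± 16.2 FPKM. The highest groups of Cxcl2 and of Cxcl5 did overlap the next in order, 34 °C with TNF-α for 1 h (37.3 ± 7.53 FPKM of Cxcl2) and 34 °C with IL-1β for 3 h (312.8 ± 23.8 FPKM of Cxcl5).

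**Figure D1:**
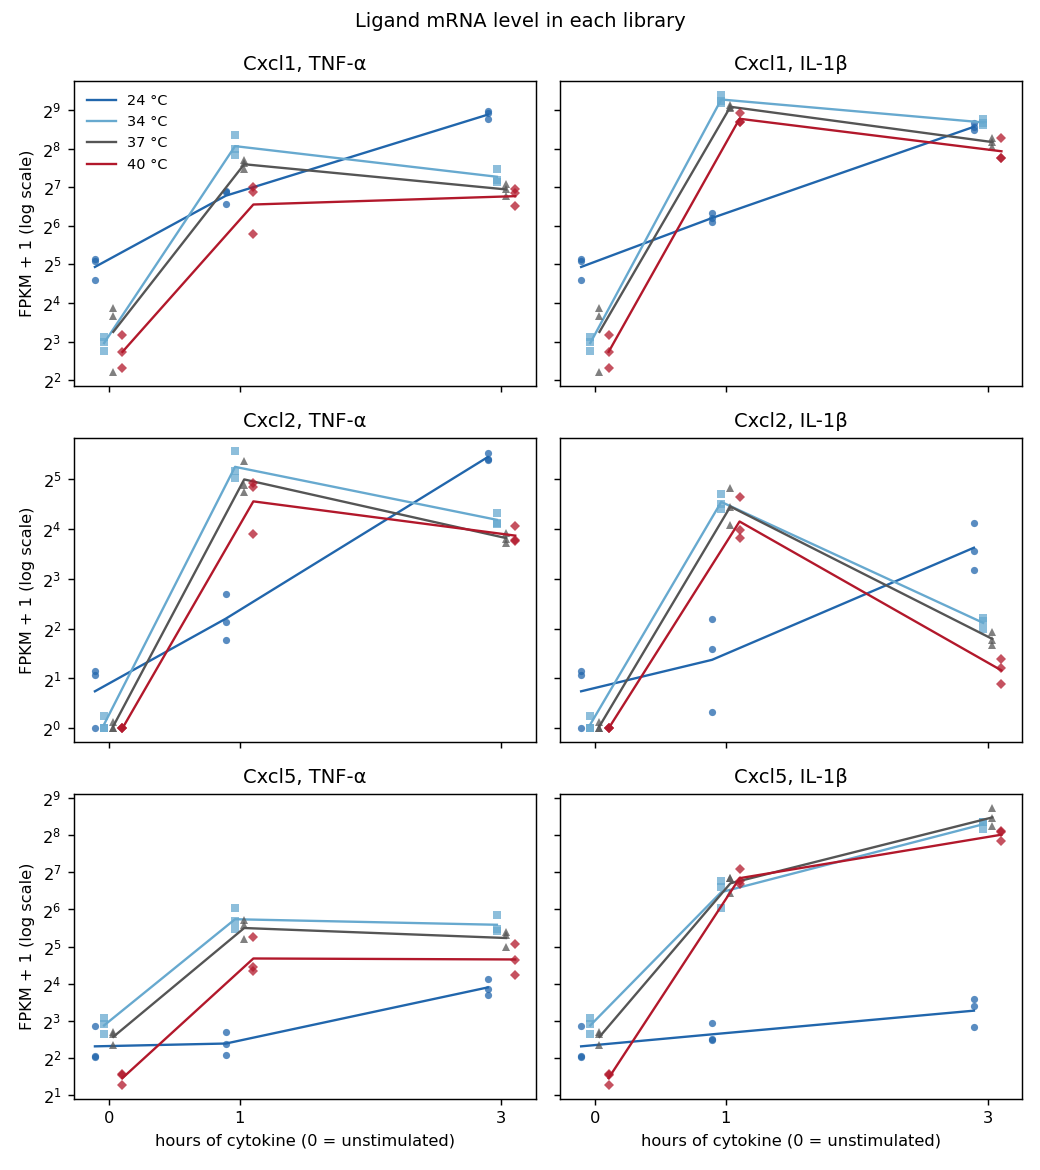
FPKM + 1 (log scale) of Cxcl1, Cxcl2 and Cxcl5 in each library against hours of cytokine, with TNF-α on the left and IL-1β on the right; points are libraries, colours and marker shapes are temperatures, and lines join the means of 3 libraries on the log2 scale. At 34, 37 and 40 °C Cxcl2 peaks at 1 h and Cxcl5 climbs to 3 h with IL-1β, while at 24 °C all lines climb from 1 h to 3 h.

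Before any cytokine, 2 of the 9 differences tested were called: Cxcl1 was higher at 24 °C than at 37 °C, and Cxcl5 was lower at 40 °C than at 37 °C. Unstimulated Cxcl1 stood at 23.1, 34.1 and 32.8 FPKM at 24 °C, at 7.71, 7.01 and 5.81 at 34 °C, at 11.8, 13.5 and 3.66 at 37 °C and at 7.96, 5.59 and 3.99 at 40 °C. The 24 °C libraries were all above the other 9. On the log2(FPKM + 1) scale used for every test below, Cxcl1 differed by 1.68 ± 0.24 (SE) at 24 °C against 37 °C (limma, Benjamini-Hochberg adjusted p = 1.13e-06). Cxcl5 stood at 3.2, 6.25 and 3.08 FPKM at 24 °C, 6.54, 7.51 and 5.25 at 34 °C, 5.54, 5.29 and 4.13 at 37 °C and 1.9, 1.99 and 1.43 at 40 °C. The 40 °C libraries were the lowest 3 of the 12, and the difference of 40 °C against 37 °C was -1.11 ± 0.23 (limma, adjusted p = 0.00134). Cxcl2 was listed at 0 in 1 of the 3 libraries at 24 °C, in 2 of 3 at 34 °C, in 2 of 3 at 37 °C and in 3 of 3 at 40 °C. Its other values were 1.11 and 1.22 FPKM at 24 °C, 0.18 at 34 °C and 0.09 at 37 °C, none of which stands for more than about 4.95 estimated fragments. Of all 10122 genes, 20.7% were called at 24 °C against 37 °C, 0.366% at 34 °C and 4.14% at 40 °C. Of the 3 chemokines, 1, 0 and 1 were called in these comparisons. With 3 genes, a count of 0 or 1 cannot be set apart from these shares, and at 24 °C it is near that of the table. Both calls ended when the compared groups were fitted alone, with adjusted p of 0.0813 for Cxcl1 and 0.0633 for Cxcl5. Without replicate 3 of the unstimulated 37 °C cells, the lowest Cxcl1 value of its group, Cxcl1 was also called at 40 °C against 37 °C (log2 difference -1.03, adjusted p = 0.00151), and without replicate 1 at 24 °C Cxcl2 was called at 24 °C (1.07, adjusted p = 0.013), as it was with 0.1 in place of 1 FPKM added (2.13, adjusted p = 0.00514).

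At 34, 37 and 40 °C, both cytokines raised all 3 genes at both times. All 36 of these responses passed the test. In all 36 the stimulated and unstimulated libraries did not overlap, though the share of all genes without overlap was not counted. At 37 °C with IL-1β, Cxcl1 stood at 542, 526 and 558 FPKM at 1 h and at 289, 264 and 310.0 FPKM at 3 h, against 11.8, 13.5 and 3.66 FPKM in unstimulated cells. With TNF-α it stood at 196, 207 and 175 FPKM at 1 h and at 124, 135 and 109 FPKM at 3 h. Cxcl1 was thus highest at 1 h with either cytokine, and every IL-1β library exceeded every TNF-α library. Cxcl1 responses at these 3 temperatures ranged between 3.69 and 6.31 on the log2 scale (SE 0.24 each), with 37 °C values of 4.34 at 1 h and 3.69 at 3 h of TNF-α and 5.83 at 1 h and 4.92 at 3 h of IL-1β.

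Cxcl2 had little or no measured mRNA before stimulation, and the log2 scale with its added 1 FPKM understates its change. At 37 °C with TNF-α it stood at 28.5, 39.9 and 25.6 FPKM at 1 h and at 14.1, 12.2 and 13.0 FPKM at 3 h. With IL-1β it stood at 27.1, 15.9 and 20.8 FPKM at 1 h and at 2.79, 2.43 and 2.2 FPKM at 3 h, against 0, 0.09 and 0 FPKM in unstimulated cells. The 2 cytokines overlapped at 1 h, and at 3 h the TNF-α libraries were all above the IL-1β libraries. Responses at 34 to 40 °C ranged between 1.16 and 5.16 (SE 0.29 each); the smallest was that to IL-1β at 3 h and 40 °C (limma, adjusted p = 0.00618), where Cxcl2 stood at 0.85, 1.31 and 1.62 FPKM and was listed at 0 in unstimulated cells.

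Cxcl5 answered IL-1β far more than TNF-α. At 37 °C with IL-1β it stood at 113, 113 and 85.7 FPKM at 1 h and at 422, 352 and 300.2 FPKM at 3 h, against 5.54, 5.29 and 4.13 FPKM in unstimulated cells. With TNF-α it stood at 46.6, 51.6 and 36.2 FPKM at 1 h and at 40.8, 38.9 and 30.9 FPKM at 3 h. The IL-1β libraries at 3 h were above those at 1 h, and the TNF-α libraries of the 2 times overlapped. Its response to IL-1β at 3 h was 5.41 at 34 °C, 5.90 at 37 °C and 6.55 at 40 °C (SE 0.23 each), which is 48.6, 71.8 and 145 times the unstimulated mean of the same temperature. Unstimulated Cxcl5 was lowest at 40 °C, and with IL-1β for 3 h it stood at 257.8 ± 25.7 FPKM there, against 358.3 ± 61.3 FPKM at 37 °C (SD, n = 3 each). The response at 40 °C minus that at 37 °C was 0.64 (95% interval -0.01 to 1.29), which was not called (limma, adjusted p = 0.73).

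Responses of the whole table were far rarer than those of the chemokines. All 3 genes were called in each of the 12 comparisons at 34, 37 and 40 °C. For TNF-α at 1 h, 1.72% of all genes were called at 34 °C, 2.99% at 37 °C and 5.37% at 40 °C. For TNF-α at 3 h, 12.6% were called at 34 °C, 14.0% at 37 °C and 19.3% at 40 °C. For IL-1β, the shares were 1.16% (34 °C), 1.88% (37 °C) and 3.16% (40 °C) at 1 h, and 5.28% (34 °C), 4.35% (37 °C) and 8.65% (40 °C) at 3 h. Leaving out any single library ended none of these 36 calls.

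**Figure D2:**
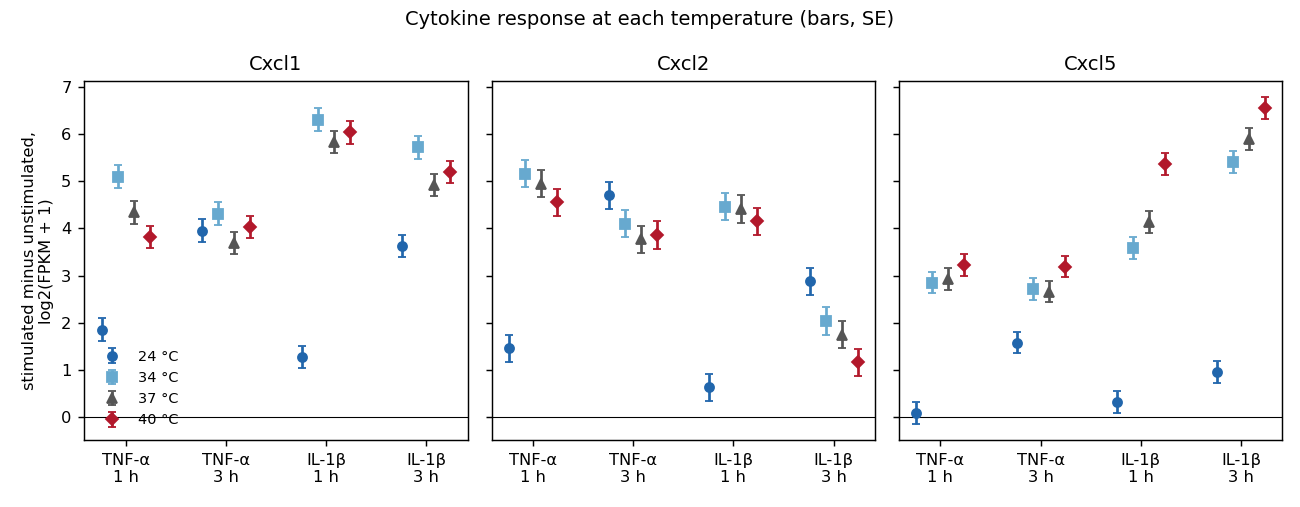
Log2(FPKM + 1) of stimulated minus unstimulated cells of the same temperature for each gene and cytokine condition; points are limma estimates, bars are SE, and colours and marker shapes are temperatures. At 1 h the 24 °C points lie far below the others for all 3 genes, and at 3 h the gap is widest for Cxcl5 with IL-1β (0.96 at 24 °C, against 5.90 at 37 °C).

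At 24 °C the responses were late, and they differed between the genes. Cxcl1 with TNF-α stood at 94.4, 118 and 116 FPKM at 1 h and at 432, 483 and 498 FPKM at 3 h, against 23.1, 34.1 and 32.8 FPKM in unstimulated cells. With IL-1β it stood at 67.1, 79.0 and 72.4 FPKM at 1 h and at 354, 376 and 405 FPKM at 3 h. At 3 h both cytokines had thus brought Cxcl1 above its 3 h levels of 109 to 135 FPKM (TNF-α) and 264 to 310.0 FPKM (IL-1β) at 37 °C. Cxcl2 stood at 2.39, 5.5 and 3.4 FPKM with TNF-α at 1 h and at 40.8, 45.1 and 41.3 FPKM at 3 h, against 0, 1.11 and 1.22 FPKM unstimulated. With IL-1β its values were 0.26, 3.56 and 2.03 FPKM at 1 h and 8.09, 10.8 and 16.4 FPKM at 3 h. The 3 h values of Cxcl2 were above those at 37 °C with either cytokine. Cxcl5 stood at 3.28, 5.52 and 4.21 FPKM with TNF-α at 1 h and at 12.1, 16.5 and 13.7 FPKM at 3 h, against 3.2, 6.25 and 3.08 FPKM unstimulated. With IL-1β its values were 4.67, 6.69 and 4.58 FPKM at 1 h and 6.12, 9.62 and 11.1 FPKM at 3 h. Cxcl5 at 24 °C therefore stayed below every stimulated library of the warmer temperatures.

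Of the 12 responses at 24 °C, 9 passed the test, all rises. The 3 that did not were Cxcl5 with TNF-α at 1 h (0.08 ± 0.23, 95% interval -0.38 to 0.54), Cxcl5 with IL-1β at 1 h (0.32 ± 0.23, -0.14 to 0.78) and Cxcl2 with IL-1β at 1 h (0.63 ± 0.29, 0.04 to 1.22; limma, adjusted p = 0.623). Cxcl1 rose by 1.85 with TNF-α and 1.27 with IL-1β at 1 h and by 3.95 with TNF-α and 3.63 with IL-1β at 3 h. Cxcl2 rose by 1.46 with TNF-α at 1 h and by 4.70 with TNF-α and 2.88 with IL-1β at 3 h. Cxcl5 rose at 3 h, by 1.58 with TNF-α and by 0.96 with IL-1β, where its stimulated and unstimulated libraries overlapped. Of all genes, 0.168% were called with TNF-α at 1 h, where 2 of the 3 chemokines were, and 0.0494% with IL-1β at 1 h, where 1 of the 3 was. At 3 h the shares were 2.42% for TNF-α and 1.42% for IL-1β, and all 3 chemokines were called with each. Single libraries decided 3 of these calls: Cxcl2 with TNF-α at 1 h (lost without unstimulated replicate 1 or TNF-α replicate 2, log2 1.09 to 1.21), Cxcl1 with IL-1β at 1 h (lost without unstimulated replicate 1 or IL-1β replicate 2, 1.10 to 1.21) and Cxcl5 with IL-1β at 3 h (lost without unstimulated replicate 1 or 3, or IL-1β replicate 2 or 3, 0.80 to 0.89). In fits of the compared groups alone, 6 of the 9 calls ended.

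Whether a response differed from that at 37 °C was tested directly, as the response at 24, 34 or 40 °C minus the response at 37 °C. Smaller responses were called in 9 of 12 tests at 24 °C and in 0 of 24 at 34 and 40 °C. At 1 h all 3 genes responded less at 24 °C to both cytokines. With TNF-α at 1 h the difference was -2.50 ± 0.34 for Cxcl1, -3.49 ± 0.42 for Cxcl2 and -2.85 ± 0.32 for Cxcl5. With IL-1β at 1 h it was -4.56 ± 0.34 for Cxcl1, -3.77 ± 0.42 for Cxcl2 and -3.81 ± 0.32 for Cxcl5 (limma, adjusted p at most 1.34e-06 in these 6 tests). At 3 h the genes parted. Cxcl5 still fell short by 4.94 ± 0.32 on the log2 scale with IL-1β (limma, log2 difference -4.94, adjusted p = 2.66e-15) and differed by -1.07 ± 0.32 with TNF-α (adjusted p = 0.0281). Cxcl2 differed by 0.92 ± 0.42 (TNF-α) and 1.13 ± 0.42 (IL-1β), neither called (limma, adjusted p = 0.199 and 0.173). Both values rest on its near-zero baseline and on the 1 FPKM added, so no direction is read from them. With 0.1 FPKM added, unstimulated Cxcl2 was itself 2.13 higher at 24 °C than at 37 °C. Cxcl1 differed by 0.25 ± 0.34 with TNF-α, not called, and by -1.29 ± 0.34 with IL-1β (limma, adjusted p = 0.0276).

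These differences are taken from each temperature's own unstimulated level, which for Cxcl1 was 1.68 higher at 24 °C. With IL-1β at 3 h the stimulated level of Cxcl1 was in fact higher at 24 °C (354 to 405 FPKM) than at 37 °C (264 to 310.0 FPKM), and its smaller response is taken from a higher start. Without replicate 3 of the unstimulated 37 °C cells that difference was -0.77, and it lost its call without any of 7 of its 12 libraries (-1.28 to -0.77, adjusted p 0.0542 to 0.203). The TNF-α 3 h difference of Cxcl5 lost its call without any of 6 of 12 libraries (-1.06 to -0.80). For Cxcl5 the libraries that ended it were replicate 2 of the unstimulated and 1 and 3 of the stimulated 24 °C cells, and replicate 3 of the unstimulated and 1 and 2 of the stimulated 37 °C cells. For Cxcl1 they were unstimulated replicates 2 and 3 and IL-1β replicates 1 and 2 at 24 °C, and unstimulated replicate 3 and IL-1β replicates 1 and 3 at 37 °C. Both calls also ended with the compared groups fitted alone (adjusted p = 0.0845 for Cxcl5 and 0.335 for Cxcl1).

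Of all genes, 1.70% were called for TNF-α at 1 h at 24 °C against 37 °C and 0.840% for IL-1β at 1 h, where all 3 chemokines were called. At 3 h the shares were 7.92% for TNF-α (1 of the 3 chemokines) and 2.28% for IL-1β (2 of the 3). At 34 °C, 0.0593% of genes were called for TNF-α at 1 h, 0% for TNF-α at 3 h, 0.0494% for IL-1β at 1 h and 0% for IL-1β at 3 h. At 40 °C the shares were 0.138% and 0.306% for TNF-α at 1 and 3 h, and 0.128% and 0.188% for IL-1β at 1 and 3 h. None of the chemokines was called in these 8 comparisons, a count near that of the table. Their 95% intervals together spanned -1.43 to 1.90. Closest to a call was the larger response of Cxcl5 to IL-1β at 1 h at 40 °C, by 1.25 ± 0.32 (limma across all genes, adjusted p = 0.153). It was called with an added 0.1 in place of 1 FPKM (1.58, limma, adjusted p = 0.0413) and with replicate number in the fit (1.25, limma, adjusted p = 0.00992).

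TNF-α and IL-1β did not favour the same ligand. At 34, 37 and 40 °C Cxcl1 was lower with TNF-α than with IL-1β in 6 of 6 comparisons, Cxcl5 was lower in 5 of 6, and Cxcl2 was higher at 3 h in 3 of 3. At 3 h and 40 °C, Cxcl2 stood at 15.7, 12.8 and 12.4 FPKM with TNF-α, against 0.85, 1.31 and 1.62 FPKM with IL-1β. There Cxcl5 stood at 24.0, 32.8 and 18.0 FPKM with TNF-α, against 273, 228 and 272 FPKM with IL-1β. For both genes the libraries of the 2 cytokines did not overlap, in opposite directions. The share of all genes without overlap was not counted here either. At 3 h, TNF-α minus IL-1β for Cxcl2 was 2.07 ± 0.29 at 34 °C, 2.02 ± 0.29 at 37 °C and 2.7 ± 0.29 at 40 °C. For Cxcl5 it was -2.70 ± 0.23, -3.24 ± 0.23 and -3.36 ± 0.23 at the same temperatures, and for Cxcl1 -1.41 ± 0.24, -1.23 ± 0.24 and -1.16 ± 0.24.

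At 1 h of cytokine, Cxcl1 differed by -1.21 ± 0.24 at 34 °C, -1.49 ± 0.24 at 37 °C and -2.22 ± 0.24 at 40 °C. At 40 °C it stood at 54.3, 127 and 116 FPKM with TNF-α, against 414, 416 and 484 FPKM with IL-1β. Cxcl5 differed by -0.73 ± 0.23 at 34 °C, where it was not called (limma, adjusted p = 0.852), by -1.20 ± 0.23 at 37 °C and by -2.16 ± 0.23 at 40 °C. Cxcl2 was not called at 1 h at any temperature, with differences of 0.83 at 24 °C, 0.70 at 34 °C, 0.54 at 37 °C and 0.40 at 40 °C (SE 0.29 each). The preference of Cxcl2 for TNF-α was thus measured at 3 h and not resolved at 1 h. Without any of 5 of its 6 libraries (every one but TNF-α replicate 2), Cxcl1 at 1 h and 34 °C lost its call (-1.25 to -1.09), and Cxcl5 at 1 h and 37 °C lost its call without TNF-α replicate 3 (-1.06) or IL-1β replicate 2 (-1.14).

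At 24 °C, Cxcl2 at 3 h was the only call between the cytokines. It stood at 40.8, 45.1 and 41.3 FPKM with TNF-α, against 8.09, 10.8 and 16.4 FPKM with IL-1β, a difference of 1.82 ± 0.29 (limma, adjusted p = 0.000586; 0.263 with 0.1 FPKM added). Cxcl1 at 24 °C differed by 0.58 ± 0.24 at 1 h and 0.31 ± 0.24 at 3 h, and Cxcl5 by -0.25 ± 0.23 at 1 h and 0.62 ± 0.23 at 3 h, none of them called. The TNF-α libraries were all above the IL-1β libraries for Cxcl1 at both times and for Cxcl5 at 3 h. How many of all genes separate in this way was not counted, so no difference is drawn from this order. The direct test of the change in preference, 24 °C minus 37 °C, was called for Cxcl1 at 1 h (2.07 ± 0.34, limma, adjusted p = 0.00105) and 3 h (1.54 ± 0.34, adjusted p = 0.00617). It was also called for Cxcl5 at 3 h (3.87 ± 0.32, adjusted p = 1.75e-11). For Cxcl2 the same test gave 0.28 at 1 h (95% interval -0.55 to 1.12) and -0.21 at 3 h (-1.04 to 0.63). The preference of Cxcl2 for TNF-α at 3 h was therefore measured at all 4 temperatures, with no difference resolved between 24 and 37 °C.

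**Figure D3:**
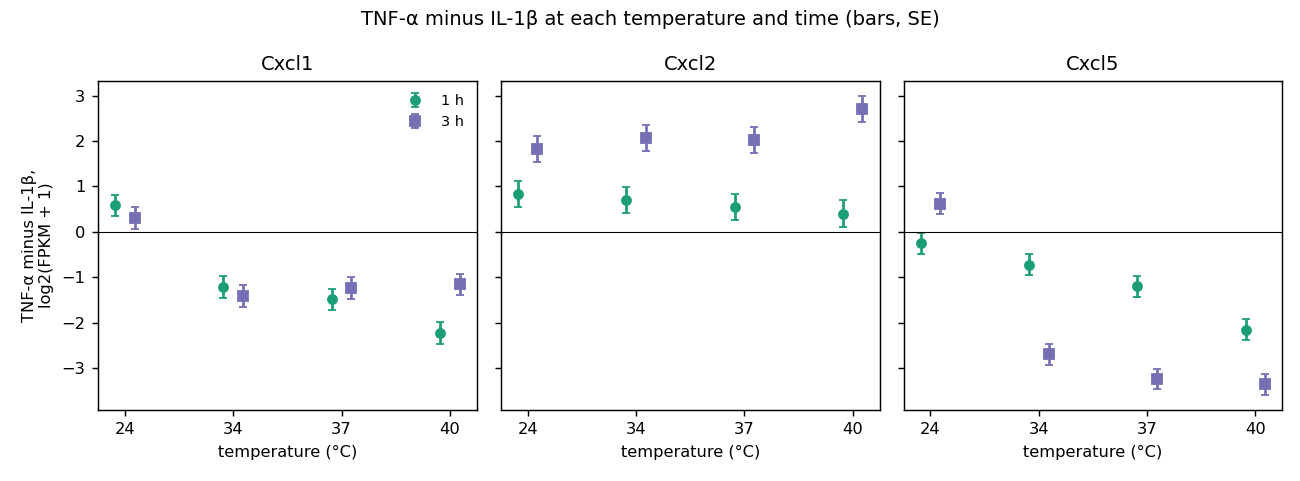
Log2(FPKM + 1) with TNF-α minus that with IL-1β at the same temperature and time; points are limma estimates and bars are SE. Cxcl2 lies above 0 at 3 h at all 4 temperatures, while Cxcl1 and Cxcl5 lie below 0 at 34, 37 and 40 °C and near or above 0 at 24 °C.

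The background of called genes for TNF-α minus IL-1β was 0.0296% at 1 h and 0.0889% at 3 h at 24 °C, where 0 and 1 of the 3 chemokines were called. It was 0.109% at 1 h (1 chemokine) and 2.42% at 3 h (3 chemokines) at 34 °C, 0.148% (2) and 4.14% (3) at 37 °C, and 0.227% (2) and 5.56% (3) at 40 °C. For the change of that preference against 37 °C it was 0.0494% at 1 h (1 chemokine) and 1.53% at 3 h (2 chemokines) at 24 °C. At 34 and 40 °C it was 0% in all 4 comparisons, and 0 of 12 tests of the chemokines were called; 2 of the 12 had an unadjusted p under 0.05, Cxcl1 and Cxcl5 at 1 h and 40 °C (limma, unadjusted p = 0.0384 and 0.0049). Fitted alone, the compared groups gave 10 calls of the chemokines in place of 15 over the 24 comparisons of TNF-α with IL-1β. Those lost were Cxcl2 at 3 h at 24 °C, Cxcl1 at 1 h at 34 and 40 °C and Cxcl5 at 1 h at 37 and 40 °C.

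The genes also kept different time. At 34, 37 and 40 °C Cxcl2 fell between 1 and 3 h of IL-1β, while Cxcl5 rose. At 40 °C with IL-1β, Cxcl2 stood at 0.85, 1.31 and 1.62 FPKM at 3 h, against 13.2, 14.8 and 23.9 FPKM at 1 h. There Cxcl5 stood at 273, 228 and 272 FPKM at 3 h, against 108, 135 and 101 FPKM at 1 h. With IL-1β, 3 h minus 1 h for Cxcl2 was -2.42 at 34 °C, -2.65 at 37 °C and -2.99 at 40 °C (SE 0.29 each). For Cxcl5 it was 1.82 at 34 °C, 1.77 at 37 °C and 1.17 at 40 °C (SE 0.23 each). Cxcl1 lay between them: it differed by -0.59 at 34 °C (not called; limma, adjusted p = 0.307), -0.91 at 37 °C and -0.84 at 40 °C (SE 0.24 each). Both calls of Cxcl1 with IL-1β rest on the full set of libraries. They ended without any of 5 of 6 libraries, namely every one but IL-1β 3 h replicate 3 at 37 °C (-0.94 to -0.85) and every one but IL-1β 3 h replicate 1 at 40 °C (-0.88 to -0.76).

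With TNF-α, Cxcl2 was lower at 3 h than at 1 h by -1.06 at 34 °C and -1.18 at 37 °C (log2 differences, both called) and differed by -0.69 at 40 °C, which was not called (limma, adjusted p = 0.115). Cxcl1 differed by -0.79 at 34 °C (called), -0.65 at 37 °C and 0.22 at 40 °C (not called). Cxcl5 differed by -0.15, -0.27 and -0.03 at 34, 37 and 40 °C, none called, with 95% intervals that together span -0.73 to 0.43. Cxcl5 thus showed no resolved change with TNF-α where it rose with IL-1β. At 34 °C the call of Cxcl1 ended without TNF-α 1 h replicate 1 or 2 or 3 h replicate 1 or 3 (-0.82 to -0.65), and that of Cxcl2 without 1 h replicate 2 or 3 h replicate 2 or 3 (-1.03 to -0.91). At 37 °C the call of Cxcl2 ended without 1 h replicate 2 (-1.0), and at 40 °C Cxcl2 gained a call without 1 h replicate 1 (-1.01, adjusted p = 0.0306). With 0.1 in place of 1 FPKM added, the 34 and 37 °C calls of Cxcl2 (adjusted p = 0.327 and 0.208) and the 34 °C call of Cxcl1 (0.0578) ended.

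Of the 6 differences of 3 h minus 1 h at 24 °C, 5 were called and all were rises: 2.10 with TNF-α and 2.36 with IL-1β for Cxcl1, 3.24 (TNF-α) and 2.25 (IL-1β) for Cxcl2, and 1.51 with TNF-α for Cxcl5. Cxcl5 with IL-1β differed by 0.64 ± 0.23 and was not called (limma, adjusted p = 0.318). The change between times differed from that at 37 °C in all 6 tests at 24 °C and in 0 of 12 at 34 and 40 °C. For Cxcl2 it differed by 4.41 ± 0.42 (TNF-α) and 4.90 ± 0.42 (IL-1β), and for Cxcl1 by 2.75 ± 0.34 (TNF-α) and 3.28 ± 0.34 (IL-1β). For Cxcl5 it differed by 1.78 ± 0.32 with TNF-α and by -1.14 ± 0.32 with IL-1β, the only negative value (limma, adjusted p = 0.0489). That last call ended without any of 10 of its 12 libraries, every one but IL-1β 3 h replicate 3 at 24 °C and at 37 °C (-1.22 to -0.91, adjusted p 0.0536 to 0.219). At 24 °C all 3 genes thus lagged at 1 h. At 3 h the levels of Cxcl1 and Cxcl2 were above the 3 h levels at 37 °C, and that of Cxcl5 was below. Against the earlier 1 h means at 37 °C, IL-1β at 3 h left Cxcl1 (378.5 against 541.8 FPKM) and Cxcl2 (11.8 against 21.3 FPKM) lower at 24 °C. TNF-α at 3 h left both higher (471.0 against 192.8 FPKM and 42.4 against 31.3 FPKM). Stimulated levels were not tested between temperatures. With the compared groups fitted alone, the calls of 3 h minus 1 h ended at 24 °C for Cxcl5 with TNF-α and Cxcl2 with IL-1β (adjusted p = 0.0906 and 0.499), at 34 °C for Cxcl1 with TNF-α and at 40 °C for Cxcl1 with IL-1β (0.0563 and 0.0686). Cxcl1 gained calls in that fit at 34 °C with IL-1β and at 37 °C with TNF-α (0.0337 and 0.0327).

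**Figure D4:**
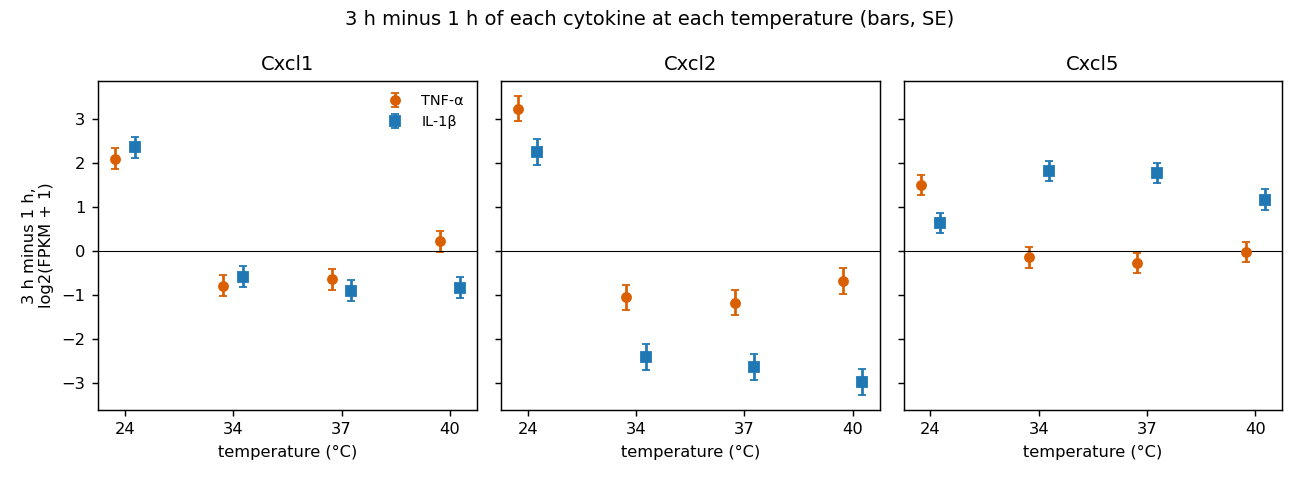
Log2(FPKM + 1) at 3 h minus that at 1 h of the same cytokine and temperature; points are limma estimates and bars are SE. At 34, 37 and 40 °C the IL-1β points lie below 0 for Cxcl2 and above 0 for Cxcl5, and at 24 °C all points lie above 0.

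For 3 h minus 1 h, the share of all genes called at 24 °C was 1.40% with TNF-α (3 of the 3 chemokines) and 0.435% with IL-1β (2 of the 3). With TNF-α it was 6.49% at 34 °C (2 of the 3), 8.51% at 37 °C (1 of the 3) and 14.3% at 40 °C (0 of the 3). With IL-1β it was 2.10% at 34 °C (2 of the 3), 2.68% at 37 °C (3 of the 3) and 5.25% at 40 °C (3 of the 3). For the difference of that change against 37 °C, the share at 24 °C was 6.85% for TNF-α and 2.11% for IL-1β, and all 3 chemokines were called with each. At 34 °C it was 0% for TNF-α and 0.00988% for IL-1β, and at 40 °C 0.366% for TNF-α and 0.0889% for IL-1β. None of the 12 tests of the chemokines was called there; Cxcl1 with TNF-α at 40 °C had the only unadjusted p under 0.05 (limma, 0.015).

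Because the genes moved apart, the make-up of the summed ligand mRNA changed. Cxcl1 had the highest mean share of the summed FPKM in every group except IL-1β for 3 h at 37 and 40 °C, where Cxcl5 did. At 37 °C, Cxcl5 took 55% ± 5.32 of this sum with IL-1β at 3 h and 15.6% ± 2.37 at 1 h, while Cxcl2 took 0.381% ± 0.0188 at 3 h and 3.18% ± 0.774 at 1 h (SD, n = 3 each). The sum itself was 648.4 ± 57.1 FPKM at 3 h and 667.2 ± 14.0 FPKM at 1 h. These means differed by less than the SD at 3 h and by more than that at 1 h. The libraries of the 2 times overlapped, and the difference was not tested. With TNF-α at 37 °C, Cxcl2 took 7.65% ± 0.987 at 3 h and 11.6% ± 1.55 at 1 h. At 24 °C with IL-1β at 3 h, Cxcl1 took 94.9% ± 1.25 and Cxcl5 2.22% ± 0.485, at a sum of 399.2 ± 32.4 FPKM.

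**Figure D5:**
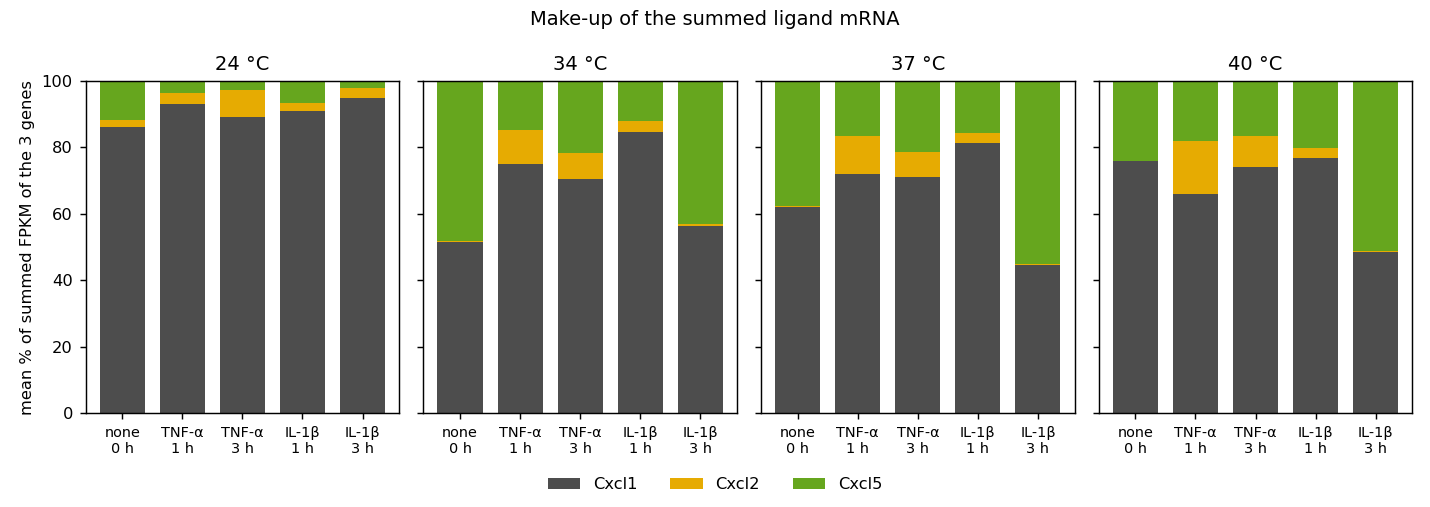
Mean percent of the summed FPKM of Cxcl1, Cxcl2 and Cxcl5 that each gene took, by temperature and condition (bars are means of 3 libraries). Cxcl5 takes about as much as Cxcl1 with IL-1β at 3 h at 34, 37 and 40 °C and little at 24 °C, and Cxcl2 takes most with TNF-α at 1 h at 40 °C.

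The proportion of each pair of genes was tested per library, as log2(FPKM + 1) of one minus that of the other, with labels exchanged within temperature (two-sided exact permutation test over 160000 regroupings, 12 tests, Benjamini-Hochberg adjusted over them). The ratio of Cxcl2 to Cxcl1 was higher with TNF-α than with IL-1β at 3 h, at -3.14 ± 0.26 against -6.16 ± 0.81 (SD, n = 12 each), in 4 of 4 temperatures (exact permutation p = 1.25e-05, the smallest possible, adjusted 5e-05). The ratio of Cxcl5 to Cxcl2 was lower with TNF-α at 3 h, at 0.52 ± 1.29 against 4.84 ± 3.14 with IL-1β (exact permutation adjusted p = 5e-05). Its difference was -1.19 at 24 °C, -4.77 at 34 °C, -5.26 at 37 °C and -6.06 at 40 °C. The same 2 ratios differed in the same directions at 1 h, by 1.70 for Cxcl2 to Cxcl1 and by -1.70 for Cxcl5 to Cxcl2 (exact permutation adjusted p = 0.0003 and 5e-05). For Cxcl2 to Cxcl1 the difference was only 0.25 at 24 °C, where the libraries overlapped. It was 1.91, 2.03 and 2.62 at 34, 37 and 40 °C. The ratio of Cxcl5 to Cxcl1 was lower with TNF-α at 3 h, at -2.62 ± 1.44 against -1.32 ± 2.41 with IL-1β (exact permutation adjusted p = 0.000475), in 3 of 4 temperatures, and not at 24 °C, where it was 0.31 higher. At 1 h it averaged -2.67 ± 1.07 with TNF-α and -2.67 ± 0.67 with IL-1β (exact permutation adjusted p = 0.997).

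Over time with IL-1β, the ratio of Cxcl5 to Cxcl2 was 2.80 higher at 3 h than at 1 h (exact permutation adjusted p = 0.00135) and that of Cxcl5 to Cxcl1 was 1.35 higher (0.0104, or 0.0549 with the replicate block). Cells at 24 °C went the other way: there the ratio of Cxcl5 to Cxcl2 changed by -1.61 and that of Cxcl5 to Cxcl1 by -1.73, against 4.43 and 2.69 at 37 °C. The ratio of Cxcl2 to Cxcl1 was lower at 3 h, with a mean difference of -1.46 (exact permutation adjusted p = 0.0003). That difference was -0.11 at 24 °C, against -1.83, -1.74 and -2.14 at 34, 37 and 40 °C. With TNF-α none of the 3 ratios differed between 3 and 1 h when the 4 temperatures were averaged (exact permutation adjusted p 0.601 to 0.793), since 24 °C went against the rest for Cxcl2 to Cxcl1 (1.14, against -0.52 at 37 °C) and for Cxcl5 to Cxcl2 (-1.73, against 0.91 at 37 °C). Over 34, 37 and 40 °C alone, those 2 ratios differed by -0.57 and 0.83 (exact permutation adjusted p = 0.0003 each).

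Genes of the ligands' surroundings were taken from 11 lists, as counts in the 4 responses at 37 °C and with values for the largest called changes. Of all genes, 2.99% and 14.0% were called at 1 and 3 h of TNF-α in these responses, and 1.88% and 4.35% at 1 and 3 h of IL-1β. Of 3 other ligands of CXCR2, only Cxcl3 was a row of the table, and none of the receptors and scavenger (Cxcr1, Cxcr2 and Ackr1) was. Cxcl3 stood at 2.93 ± 0.78 FPKM at 1 h and 12.2 ± 0.759 FPKM at 3 h of TNF-α, and at 2.22 ± 0.761 FPKM at 1 h and 3.46 ± 0.611 FPKM at 3 h of IL-1β. Its unstimulated level was 0.207 ± 0.221 FPKM (SD, n = 3 each), and all 4 responses were called. Cxcl3, whose promoter holds the same κB match, was 1.76 ± 0.23 higher at 3 h than at 1 h of TNF-α at 37 °C (limma, adjusted p = 1.63e-07), where Cxcl2 differed by -1.18. At 24 °C it was called in none of its 4 responses, at 0 to 0.75 FPKM in every library, and all 4 responses were smaller than at 37 °C, by -1.71 and -2.90 at 1 and 3 h of TNF-α and by -1.29 and -1.46 at 1 and 3 h of IL-1β (limma, adjusted p at most 0.0355). Among the other CXC chemokines, 3 of 8 were measured. Of these, Cxcl10, which attracts T cells, and Cxcl16 rose at 1 h with both cytokines, and at 3 h both rose with TNF-α and only Cxcl16 with IL-1β. Cxcl16 stood at 18.2 ± 2.28 FPKM with TNF-α at 3 h, against 0.18 ± 0.312 FPKM in unstimulated cells. Cxcl12, a ligand of CXCR4, fell with TNF-α at 3 h, to 1209 ± 174 FPKM against 1750 ± 259 FPKM in unstimulated cells. The list medians of the log2 changes were 1.59 and 3.21 at 1 and 3 h of TNF-α and 1.36 and 0.52 at 1 and 3 h of IL-1β.

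The NF-κB inhibitors rose together. All 4 measured members of 5 were higher in each of the 4 responses at 37 °C, with median log2 changes of 2.46 and 3.05 at 1 and 3 h of TNF-α and 2.21 and 1.24 at 1 and 3 h of IL-1β, against medians of all genes between -0.04 and 0.00 in the same comparisons. Tnfaip3, which encodes the ubiquitin-editing inhibitor A20, stood at 206 ± 7.55 FPKM at 1 h of TNF-α, against 6.99 ± 0.162 FPKM in unstimulated cells. Nfkbia, which encodes IκBα, stood at 475 ± 13.9 FPKM at 1 h of TNF-α, against 30.8 ± 6.50 FPKM, and Tnip1, a partner of A20, at 161 ± 32.4 FPKM at 3 h of TNF-α, against 24.5 ± 2.31 FPKM. Of 8 measured genes of the shared kinases and NF-κB, 3 rose in each of the responses but IL-1β at 3 h, where 2 did. They were Relb and Nfkb1 in all 4 and Rel, which encodes c-Rel, in the other 3; list medians were 0.02 to 0.11. Relb stood at 61.8 ± 6.27 FPKM at 3 h of TNF-α, against 4.74 ± 1.03 FPKM in unstimulated cells. Of 3 measured co-regulators, 2 rose at 1 h of TNF-α, 1 rose and 1 fell at 3 h of TNF-α, and all 3 rose at both times of IL-1β, with list medians of 0.59 to 1.48. Bcl3, a nuclear IκB protein, rose in all 4, by 2.39 to 3.06. Cebpd, a C/EBP transcription factor, was higher with IL-1β at 3 h (47.7 ± 4.00 FPKM) and lower with TNF-α at 3 h (12.5 ± 1.24 FPKM) than in unstimulated cells (17.1 ± 2.25 FPKM), both called.

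Of 7 TNF receptor pathway genes 2 rose at 1 h and 4 at 3 h of TNF-α, and 3 at each time of IL-1β, led by Birc3, an inhibitor of apoptosis (log2 change 2.53 at 3 h of TNF-α), with list medians of 0.05 to 0.43. Of 10 measured IL-1 receptor pathway genes, 1 rose at 1 h of TNF-α, 3 rose and 1 fell at 3 h of TNF-α, none was called at 1 h of IL-1β and 1 rose at 3 h of IL-1β, with list medians of 0.04 to 0.16. Il1rn, which encodes the IL-1 receptor antagonist, and the adaptor Myd88 were among those that rose at 3 h of TNF-α (log2 change 1.69 and 0.63). Il1r1, the signalling receptor for IL-1, was higher at 3 h of both cytokines (log2 change 0.59 with TNF-α and 0.64 with IL-1β). In unstimulated cells at 24 °C it was lower, at 18.0 ± 1.59 FPKM against 25.2 ± 3.19 FPKM at 37 °C (limma, adjusted p = 0.0115). Of the 10 genes, 2 were lower and 0 higher there. This count is near that of the table, of which 20.7% was called in either direction. The part of this change in the chemokine responses was not tested. Of 5 measured proteoglycans and Tnfaip6, 1 rose in each response: Sdc4, a heparan sulfate proteoglycan of the cell surface, by 0.90 and 0.84 at 1 and 3 h of TNF-α and by 0.66 and 0.63 at 1 and 3 h of IL-1β, with list medians of 0.02 to 0.13. In lists this short, a count of none or 1 cannot be set apart from the share of all genes called (1.88% to 14.0% in the responses at 37 °C).

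Some proteins promote or hinder the decay of short-lived mRNAs, through AU-rich elements or in other ways. The list used here pools both kinds, so its counts and medians give no direction of decay. Of 9 measured genes of mRNA decay and stabilisation, 5 rose at 1 h and 3 at 3 h of TNF-α, 3 rose at 1 h of IL-1β, and 2 rose and 1 fell at 3 h of IL-1β, with list medians of 0.16 to 0.48. The gene that fell was Zfp36, which encodes tristetraprolin, a protein that binds AU-rich elements and promotes decay: it stood at 5.21 ± 0.633 FPKM, against 11.5 ± 2.85 FPKM in unstimulated cells. Zc3h12a, which encodes the RNase Regnase-1, stood at 35.2 ± 3.37 FPKM with IL-1β at 3 h and at 8.63 ± 0.204 FPKM with TNF-α at 3 h, against 3.39 ± 0.106 FPKM in unstimulated cells. In unstimulated cells at 24 °C against 37 °C, 5 of these 9 genes were higher and 1 lower, where 20.7% of all genes were called in either direction. Zfp36 stood at 29.7 ± 2.90 FPKM at 24 °C and 11.5 ± 2.85 FPKM at 37 °C, and Arid5a, which can stabilise inflammatory mRNAs, at 13.6 ± 0.825 FPKM at 24 °C and 5.07 ± 0.888 FPKM at 37 °C. The list median was 0.43 there, against -0.03 for all genes. The part of these changes in the chemokine levels was not tested. Of 4 other factors that bring neutrophils in or sustain them, 3 rose at both times of TNF-α and at 1 h of IL-1β, and all 4 rose at 3 h of IL-1β, with list medians of 1.69 to 3.30. Csf2 was listed at 0 in unstimulated cells and stood at 20.1 ± 2.76 FPKM with TNF-α at 3 h. Il6 stood at 34.4 ± 8.02 FPKM at 1 h of TNF-α, against 6.1 ± 1.35 FPKM in unstimulated cells. The adhesion molecule Icam1 stood at 123 ± 22.5 FPKM with TNF-α at 3 h and 24.3 ± 6.98 FPKM with IL-1β at 3 h, against 0.94 ± 0.132 FPKM in unstimulated cells.

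The genes whose 20 group means were most like those of each ligand were ranked by Pearson r of log2(FPKM + 1) among 7187 genes, as a description, since the groups share temperatures and stimuli. For Cxcl1 the top 5 were Il6 (r = 0.939), Zc3h12a (0.823), Ereg (0.788), Fgf7 (0.787) and Lif (0.775). For Cxcl2 they were Tnfaip3 (0.979), Gem (0.962), Nfkbia (0.958), Noct (0.947) and Irf1 (0.923). For Cxcl5 they were Zc3h12a (0.914), Osmr (0.851), Slc11a2 (0.848), Ctps (0.828) and Ifnar2 (0.821). Zc3h12a was named for both Cxcl1 and Cxcl5, and none of the 5 named for Cxcl2 was named for another ligand. This separation depended on the added 1 FPKM. With 0.1 FPKM added, Lif was named for both Cxcl1 (0.810) and Cxcl2 (0.951), and Cxcl2 itself for Cxcl1 (0.840). Tnfaip3, like Cxcl2, was lower at 3 h than at 1 h at 37 °C and higher at 24 °C. With IL-1β it stood at 17.3 ± 4.25 FPKM at 3 h and 96.2 ± 12.6 FPKM at 1 h at 37 °C, and at 59.4 ± 1.85 FPKM at 3 h and 13.7 ± 0.444 FPKM at 1 h at 24 °C. Among the ligands, r was 0.748 between Cxcl1 and Cxcl2, 0.718 between Cxcl1 and Cxcl5 and 0.378 between Cxcl2 and Cxcl5. Over the 16 stimulated groups alone these were 0.282, 0.517 and -0.147, lower in each pair.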

How the data were processed

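The authors deposited 1 table of FPKM values per gene and library, for which the submitters' processing notes give RSEM 1.3.3, STAR 2.7.11b, edgeR and the build GRCm39, with neither order nor role. Total RNA was sequenced; the labels give temperature, treatment and replicate, and all 60 columns matched a sample by its title. FPKM were used as deposited: log2(FPKM + 1) was fitted in limma 3.58.1 (R 4.3.3) with 1 mean per group over all 60 libraries (40 residual degrees of freedom), moderated variances with a trend, and Benjamini-Hochberg adjustment over all 10122 genes within each comparison, with calls at adjusted p below 0.05. A filter of 1 FPKM in 3 libraries removed no gene, since every deposited gene already reached 1 FPKM in at least 4 libraries. Shares of all genes are thus shares of these 10122, and a gene without a row has no value here. A fold of FPKM means was given only where no unstimulated library was at 0. The model was tested on simulated data. The members, gene lists and comparisons were chosen with earlier results of these data known. Named genes are the 3 ligands, the 5 most alike by r with a highest group mean of at least 5 FPKM, and up to 3 called genes of each list with the largest change at 37 °C. Depth was set so that low values of 1132 single-transcript genes fell near whole fragments (82.4% to 90.9% within 0.15 of a whole number, against 30% for evenly spread values), so those shares are no independent check, and counting error per value is not given. Where the labels say biological replicates without naming what was repeated, p-values measure the spread between these libraries. Protein sequences were not used here.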

Additional observations from a re-analysis of the deposited data

Results flagged for a closer look

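The responses of the 3 ligands at 24 °C differed from those at 37 °C in 9 tests of the difference itself. With TNF-α at 1 h the response was smaller at 24 °C (log2 difference of responses -2.50 for Cxcl1, -3.49 for Cxcl2 and -2.85 for Cxcl5), and with IL-1β at 1 h likewise (-4.56 for Cxcl1, -3.77 for Cxcl2 and -3.81 for Cxcl5). At 3 h it was smaller for Cxcl5 with TNF-α (-1.07) and IL-1β (-4.94) and for Cxcl1 with IL-1β (-1.29).

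The difference between TNF-α and IL-1β changed with temperature in 3 tests, 24 °C minus 37 °C: for Cxcl1 by 2.07 at 1 h and 1.54 at 3 h, and for Cxcl5 by 3.87 at 3 h. At 3 h, IL-1β raised Cxcl5 at 37 °C above every TNF-α library and did not do so at 24 °C. There the TNF-α libraries were the higher ones, in a difference that was not called.

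The change between 3 and 1 h differed between 24 and 37 °C in all 6 tests. With TNF-α it differed by 2.75 for Cxcl1, 4.41 for Cxcl2 and 1.78 for Cxcl5, and with IL-1β by 3.28 for Cxcl1, 4.90 for Cxcl2 and -1.14 for Cxcl5. Each of these 18 values rests on 24 °C libraries, whose numbers, depth and temperature cannot be told apart.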

How the results depend on the processing

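Counts of called members were within 1.5 times of those reported under an added 0.1 FPKM, no filter, a mean of at least 5 FPKM, rescaled libraries, no variance trend and the replicate block, and with any library left out. The exception was fitting the compared groups alone, which left 0 of the 2 calls in unstimulated cells. With a library left out, the counts ranged from 2 to 3 (temperature effects), 42 to 45 (responses), 7 to 9 (response differences), 14 to 15 (TNF-α minus IL-1β), 3 to 3 (its differences), 14 to 17 (3 h minus 1 h) and 5 to 6 (its differences). Of 96 calls, 13 ended without some library. No called value changed sign under any of these alternatives. Sign changes where neither fit made a call numbered 54, of which 3 came with 0.1 FPKM added. The replicate block was kept as an alternative because the labels do not say that the numbers pair samples. The data do show likeness by number: 55 of 60 libraries were closest to their own number at their temperature, with 3 numbers to choose from. That likeness was weak. Same-numbered deviations at 1 temperature correlated at 0.049 on average and others at -0.025. In 0 of 16 pairs of stimulated and unstimulated groups were all 3 correlations over 0.1. The fit used for the reported calls leaves this likeness out. With the block, 10 response differences were called in place of 9, adding Cxcl5 with IL-1β at 1 h and 40 °C (1.25, limma, adjusted p = 0.00992). Under the block, the higher ratio of Cxcl5 to Cxcl1 at 3 h than at 1 h of IL-1β (1.35) was no longer called (exact permutation adjusted p = 0.0549). Without 24 °C, the TNF-α ratios at 3 h against 1 h were called, at -0.57 for Cxcl2 to Cxcl1 and 0.83 for Cxcl5 to Cxcl2, the averages over 4 temperatures being -0.14 and 0.19. The Cxcl5 difference of -1.14 between times was not called after rescaling (-1.06, adjusted p = 0.0634), without the trend (adjusted p = 0.057), with 0.1 FPKM added (0.126) or with the compared groups alone (0.151). The Cxcl5 TNF-α 3 h response difference of -1.07 was not called with 0.1 FPKM added (adjusted p = 0.0506). Of the 15 places among genes with like patterns (5 per ligand, Zc3h12a holding 2), 6 were held by the same genes over the 16 stimulated groups (0 of 5 for Cxcl5), the cause of which was not tested, and 13 with 0.1 FPKM added. Values of Cxcl2 below about 1 FPKM rest on a few fragments, which limits its baseline and every fold from it.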
